A study of Rattus norvegicus with 50 samples.

Results

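The effect of diethyl phthalate (DEP), a plasticiser and solvent of personal care products, on gene expression in the mammary gland was examined in parous rats, that is, rats that had borne and nursed a litter. The members are the 10 parous rats whose titles begin with DEP_par (5 rats) or OIL_par (5 rats), of 50 rats in the whole series. All were female Sprague-Dawley rats with no siblings within a treatment group. DEP rats received DEP in olive oil and control rats the olive oil vehicle alone, from postnatal day (PND) 1 to PND 180, first through the milk of their gavaged dams and, after weaning at PND 28, by oral gavage 3 times a week. Both groups were mated at PND 97, and dosing continued while they carried and nursed their pups. Tissue was taken from all 10 on PND 181, when no litter was being nursed any more, without regard to the stage of the cycle. Left and right caudal glands of 1 pair were used whole, so the RNA comes from a mixture of epithelium, fat, stroma, vessels and any lymph node in the tissue. The question behind the comparison is whether a low oral dose leaves a measurable mark on the mammary transcriptome. It is described here mainly for genes outside the gene signature that the study published for parous rats.

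The mammary gland is a branched tree of ducts set in a fat pad. Its epithelium has an inner luminal layer, with cells that carry estrogen and progesterone receptors and cells that can make milk, and an outer basal layer of contractile myoepithelial cells. After nursing ends the milk-making lobules die back and the gland is rebuilt, with macrophages and mast cells taking part in the remodelling of ducts and stroma. Luminal cells are held together by tight junctions, secrete through the endoplasmic reticulum (ER) and Golgi, and carry transporters, mucins and proteases on the surface that faces the lumen.

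Each rat gave 1 Affymetrix Rat Gene 2.0 ST array, and values are log2 signals, so a difference of 1 is a 2-fold difference and the number of arrays sets the precision. RNA was extracted with either of 2 kits, Promega or Zymo, which also form the 2 batches of the labels and were unevenly spread: 4 of the 5 DEP rats but 2 of the 5 controls were Zymo rats, and DEP_par_46 was the sole DEP rat of the Promega kit. The kit differed in 5821 of 6642 tested genes (87.6%, limma, adjusted p under 0.05, median absolute difference 1.20 on the log2 scale). The tested genes were kept for their variance on values that hold the kit difference, which favours such genes, and over all 13284 genes past the intensity filter the kit differed in 8340 (62.8%). Every difference below therefore comes from a limma model of treatment plus kit over the 10 rats, and signals are also given within each kit. A gene passed when its p, adjusted by Benjamini-Hochberg, was below 0.25 and it differed at least 1.5-fold (0.58 in log2), the thresholds of the study's methods. Rats are separate animals, and n is 5 per group throughout. Correlations between the 10 arrays ran from 0.857 to 0.988. The labelled tissue carried its markers in both groups: after the kit difference was removed, the mean over 19 adipocyte genes was 9.68 to 10.73 in DEP rats and 9.81 to 10.63 in controls, and Krt8, a keratin of luminal cells, averaged 8.68 with DEP and 10.01 in controls. A few rats stood apart. DEP_par_41 had a skeletal muscle level of 9.79 against 6.25 to 6.77 in the other 9 rats. DEP_par_38 had T and NK cell and B cell levels of 7.74 and 6.84, below the other 4 DEP rats.

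DEP rats had lower signals for 450 of 6642 genes (6.78% of those tested) and higher signals for 18 genes (0.271%). Of the falls, 175 were 2-fold or more. When both filters were applied after ComBat, the order in the study's methods, 6545 genes were tested, 4062 of them the same, and 723 fell and 63 rose, in the same model, among them 449 of the 450 falls (all but Cyb561) and all 18 rises. Low signals stayed among the falls, since the intensity filter needed 1 group mean above 6.33: in 19 of the 450 the mean of DEP rats lay below that value. In each kit, the mean of DEP rats lay below that of controls for all 450 genes that fell, and above it for all 18 that rose. The fit that called these genes combines the differences within the kits, so this describes the calls and is no further support. How many of all tested genes had the same direction in both kits was not counted. With the Promega kit, the DEP mean is the value of DEP_par_46 alone. DEP rats lay below the controls of the same kit without any overlap, in both kits, for 503 tested genes (7.57%) and above them for 48 (0.723%), and 257 of the 450 genes that fell were among the 503. At an adjusted p under 0.05, 97 genes fell and 0 rose, while 1079 genes reached an unadjusted p under 0.05 and at the main thresholds a fit with array weights called 816 falls and 641 rises and a model of all 50 rats 545 and 298. The median difference over all tested genes was -0.06.

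The published parous signature was chosen on these rats, so its behaviour here is no independent evidence. Of its 91 symbols, 86 matched the array, as 88 rat genes, all tested, and 86 of the 88 fell. The other 364 falls lay outside it, 10 of them in the nulliparous signature only and 354 in neither. The study built the signature from the largest differences among its parous calls and kept those with a human ortholog. A gene outside the signature may therefore still have been among the study's calls. Of the 97 falls at an adjusted p under 0.05, 50 lay outside the parous signature.

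The number of falls that passed depended on single rats, while all 450 genes stayed lower with DEP in each of the 10 leave-out fits. These fits share the rats that chose the genes, so the shared direction is a description. Without DEP_par_46, the sole Promega DEP rat, 64 genes passed, all as falls, and 62 of them were among the 450. In that fit the treatment difference rested on the Zymo rats alone, so it was also less precise. Without control OIL_par_446, 130 passed, all as falls, 126 of them among the 450. Leaving out DEP_par_38 or OIL_par_444 had the opposite effect, with 723 falls and 582 rises and with 815 falls and 670 rises. Without DEP_par_37, 288 fell and 6 rose, and without DEP_par_40, 295 fell and 7 rose. The remaining 4 leave-outs gave 346 to 435 falls and 8 to 15 rises. A total of 54 genes fell whichever single rat was left out, 31 in the parous signature and 23 outside it. No rise held in all 10 fits, and the most a rise held in was 8.

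**Figure D1:**
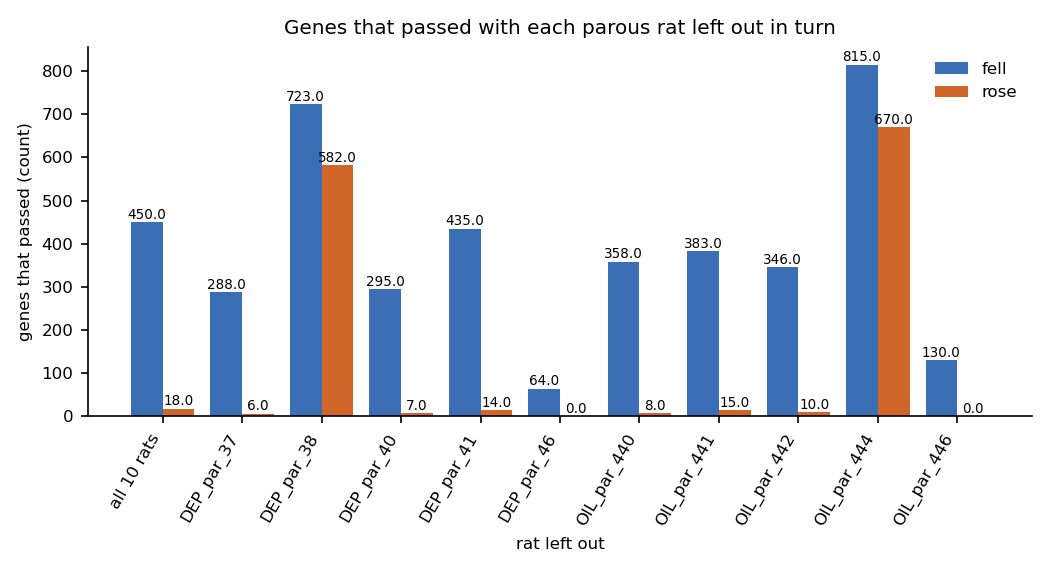
Bars give the number of genes that passed (y axis, count) as falls (blue) and rises (orange) in the fit of all 10 parous rats and with each rat left out in turn (x axis). The fit of 10 rats gave 450 falls and 18 rises, and without DEP_par_46 64 falls and 0 rises.

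The 23 genes outside the signature that fell in all 10 fits are described first. Differences ranged from -2.02 to -0.65, and in each kit every DEP rat lay below every control of that kit for all 23. They code for secreted proteases and inhibitors, surface and transport proteins, enzymes of the ER, Golgi and lysosome, receptors, and proteins of less clear role. Since the fits chose them, this separation is a description and no further support. The 23 passed also in fits with ComBat in place of the kit term and with all 50 rats in 1 model, and 22 of them after quantile normalization over the 10 rats, where Tmbim1 missed the fold change. These fits compare the same 10 rats that chose the genes, so passing them is no independent support either. Without a kit term, 3 of the 23 passed, and in the 6 Zymo rats alone 3 did, while all 23 stayed lower in the Zymo rats, by -2.66 to -0.69.

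Klk1c9, a serine protease of the rat glandular kallikrein cluster, had the largest fall of the 23. Klk1c9 signals were 7.71 and 8.34 in the Zymo controls and 5.58, 5.35, 5.16 and 5.39 in the Zymo DEP rats, and 6.51, 6.41 and 6.67 in the Promega controls against 5.64 in DEP_par_46. After the kit difference was removed, the level was 5.27 ± 0.50 against 7.29 ± 0.46 in controls (SD, n = 5 each). The difference was -2.02 (SE 0.31, adjusted p = 0.0177). All 5 DEP rats read below the intensity threshold of 6.33, which Klk1c9 passed through its controls, and the files do not show whether such signals exceed background, so the exact size of its fall is uncertain. Klk1c9 belongs to a family of closely similar genes that a probeset may not tell apart. Spink8 codes for a Kazal-type inhibitor of serine proteases. For Spink8, the Zymo DEP rats read 9.82, 9.86, 9.23 and 9.55 where the Zymo controls read 11.67 and 12.13, and DEP_par_46 read 7.34 where the Promega controls read 9.17, 8.17 and 8.95. The 5 DEP rats lay below the controls within each kit, and the difference was -1.97 (SE 0.27, adjusted p = 0.0143). Promega rats read this gene lower in both groups, and across the kits the ranges overlapped. Spint1, a membrane inhibitor of the surface proteases matriptase and hepsin and a gene of the nulliparous signature, fell by 1.07 on the log2 scale (SE 0.17, adjusted p = 0.0182). Among all kallikreins, serine proteases and inhibitors, 10 of 13 tested members (of 33 measured) fell, 7 of them outside the signature, against 6.78% of all tested genes (the count was 4 without DEP_par_46 and 6 without OIL_par_446). The median difference of the measured members was -0.12. Prss8 (prostasin), which activates epithelial sodium channels, changed by -1.35 (adjusted p = 0.0692), Serpinb5 (maspin) by -1.72 (adjusted p = 0.0721) and Tmprss2 by -0.96 (adjusted p = 0.1). Without DEP_par_46, Prss8 (-0.97), Serpinb5 (-1.60) and Tmprss2 (-0.70) no longer passed, nor did Serpinb5 (-1.43) and Tmprss2 (-0.90) without OIL_par_446.

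Solute transport was represented by Slc5a8, a sodium-coupled carrier of short-chain fatty acids and lactate. Signals of Slc5a8 were 7.94, 8.03, 7.84 and 7.80 (DEP) against 8.82 and 9.85 (controls) with the Zymo kit and 7.59 (DEP) against 9.09, 8.91 and 9.86 (controls) with the Promega kit. The lowest control of each kit lay well above the highest DEP rat. The difference was -1.53 (SE 0.25, adjusted p = 0.0209). Scnn1b, a subunit of the epithelial sodium channel, fell by 1.33 (adjusted p = 0.0456) and Kcnk1, a potassium channel, by 1.54 (adjusted p = 0.0429), both in the signature, and neither passed without DEP_par_46 (-1.10 and -1.45). In the list of epithelial surface, ion and solute transport, 13 of 21 tested members (of 41 measured) fell, 8 in the signature and 5 outside it (Slc5a8, Scnn1g, Slc15a2, Scnn1a and Bspry). That count was 2 without DEP_par_46 and 7 without OIL_par_446. The median over the measured members was -0.34.

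**Figure D2:**
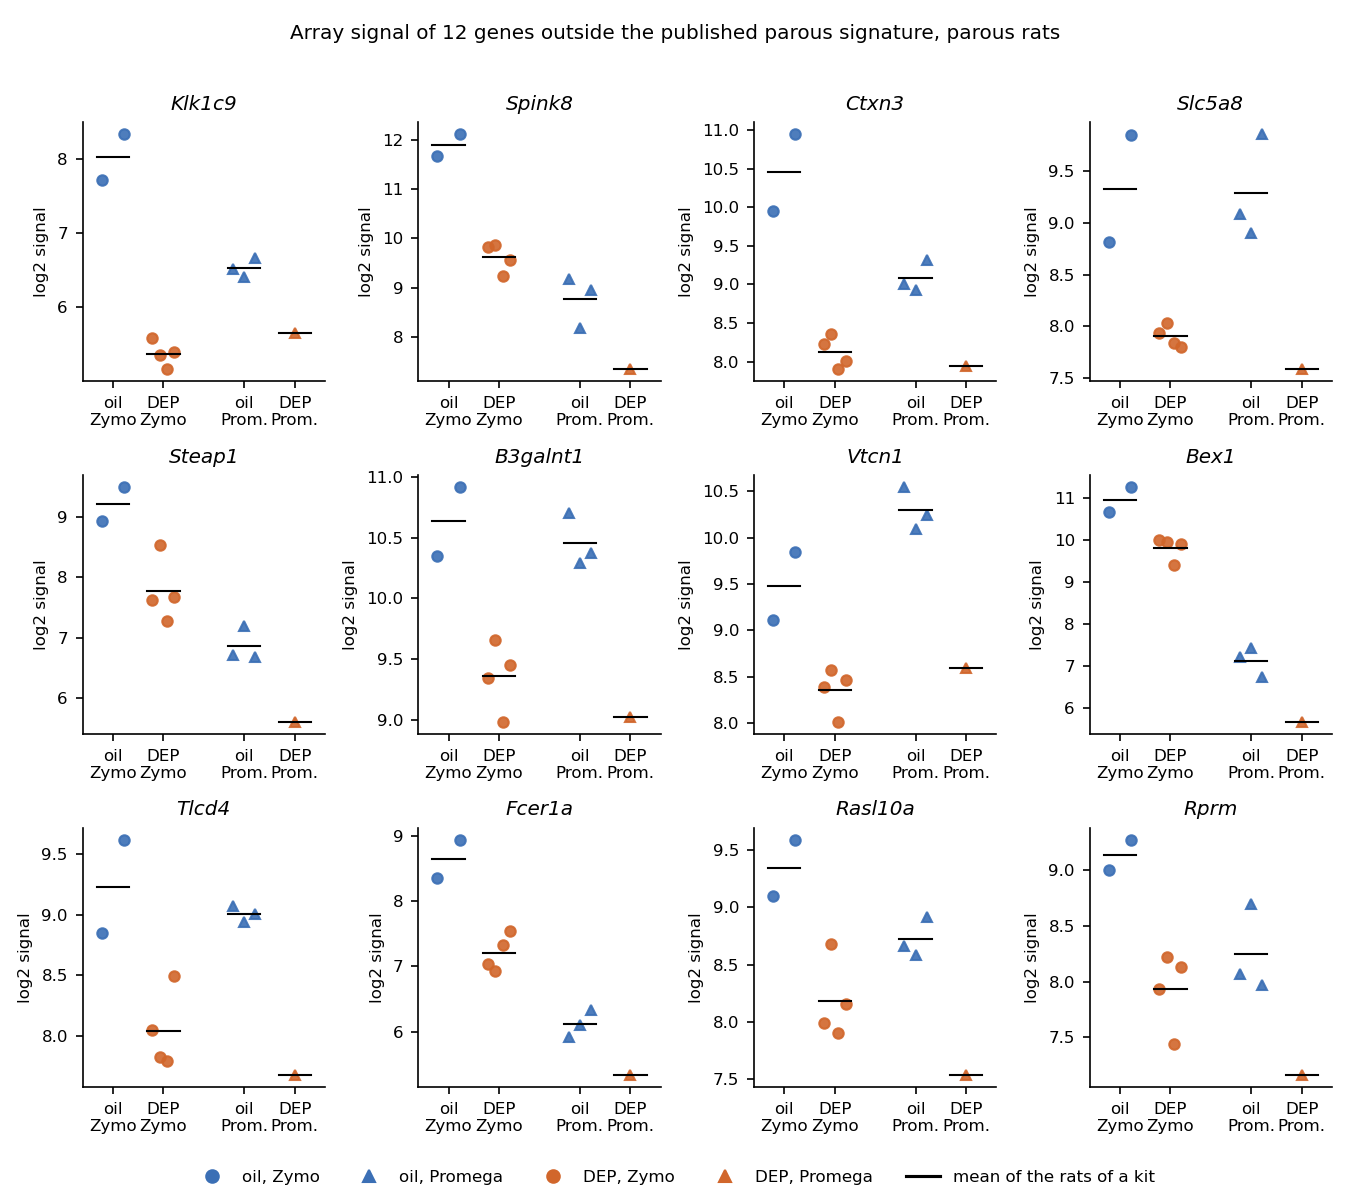
Points are log2 array signals (y axis) of single parous rats for the 12 largest falls among the 23 genes outside the signature, by treatment and RNA kit (x axis), with circles for Zymo, triangles for Promega and black lines for the mean of each kit's rats. In each panel the DEP rats (orange) sit below the controls (blue) of their own kit, as for Slc5a8, where the Zymo DEP rats reach 8.03 and the lower Zymo control 8.82.

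Of the junction genes outside the signature, Ocln (occludin), a membrane protein of tight junction strands, fell whichever rat was left out, though it did not pass with no kit term (-1.13) or in the Zymo rats alone (-0.96). Ocln signals were 9.12 and 9.64 in the Zymo controls and 8.25, 8.51, 8.31 and 8.60 in the Zymo DEP rats, and 9.70, 9.85 and 9.40 in the Promega controls against 8.39 in DEP_par_46. Its ranges did not overlap even across the kits. The difference was -1.07 (SE 0.16, adjusted p = 0.0164). The claudins form the strands and set what passes between cells, and Cldn8 (-2.61), Cldn7 (-1.20), Cldn4 (-1.15) and Cldn3 (-0.99) fell. In all, 10 of 16 tested members (of 27 measured) of tight junction genes fell, 7 outside the signature, with a median of -0.68 over those measured. Their mean level after the kit difference was removed was 7.77 to 8.23 in DEP rats and 8.33 to 8.65 in controls, with no overlap. The count was 3 without DEP_par_46. Without DEP_par_46, Cldn7 (-0.90), Cldn4 (-0.82) and Cldn3 (-0.62) no longer passed. In adherens junctions and desmosomes, 2 of 11 tested members (of 20 measured) fell, Epcam, an adhesion protein of luminal cells, by 1.73 (adjusted p = 0.0246) and Pkp2, a desmosomal plaque protein, by 1.13 (adjusted p = 0.0445). The count was 0 without DEP_par_46 and 4 without DEP_par_38 or OIL_par_444. Without DEP_par_46, Epcam (-1.54) and Pkp2 (-1.15) no longer passed.

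Several of the 23 genes code for receptors or ligands. Vtcn1 (B7-H4) is a cell surface ligand that restrains T cells and is made by glandular epithelium. For Vtcn1, the Zymo DEP rats read 8.39, 8.57, 8.01 and 8.46 where the Zymo controls read 9.11 and 9.85, and DEP_par_46 read 8.59 where the Promega controls read 10.55, 10.09 and 10.25. The groups did not overlap within either kit, and the difference was -1.33 (SE 0.21, adjusted p = 0.0182). Agtr1a, the type 1 receptor of angiotensin II, differed by -1.07 (SE 0.18, adjusted p = 0.0246). Fcer1a, the alpha chain of the IgE receptor by which mast cells are triggered, gave the following values. Signals of Fcer1a were 7.03, 6.93, 7.33 and 7.55 (DEP) against 8.36 and 8.95 (controls) with the Zymo kit and 5.33 (DEP) against 5.92, 6.09 and 6.33 (controls) with the Promega kit. Promega rats read this gene lower in both groups, and within each kit the DEP rats lay below. The Promega signals of Fcer1a lay near or below the intensity threshold of 6.33, so its Promega separation and the size of its fall are uncertain. The difference was -1.21 (SE 0.21, adjusted p = 0.0246).

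The other members of the 23 had the following differences. Ctxn3 codes for a small membrane protein of the cortexin family. Ctxn3 signals were 9.95 and 10.95 in the Zymo controls and 8.23, 8.36, 7.90 and 8.01 in the Zymo DEP rats, and 9.0, 8.93 and 9.31 in the Promega controls against 7.94 in DEP_par_46. The DEP rats were lower in both kits and lay below all 5 controls, and the difference was -1.90 (SE 0.28, adjusted p = 0.0145). Steap1, a metalloreductase-related membrane protein first described in prostate, changed by -1.38 (adjusted p = 0.0364), and B3galnt1, the transferase that makes globoside, by -1.33 (adjusted p = 0.0143). Rprm (reprimo), a cell cycle inhibitor induced by p53, changed by -1.16 (adjusted p = 0.028). Rasl10a, a small GTPase, changed by -1.17 (adjusted p = 0.0182), Tmtc4, an ER enzyme that adds mannose to cadherins, by -1.04 (adjusted p = 0.0198), and Inhca, an inhibitor of carbonic anhydrase, by -1.03 (adjusted p = 0.0143). Tlcd4, a membrane protein, had a difference of -1.24, Mup4l3, of the major urinary protein family and with both group means below the intensity threshold, -0.77 and Tmbim1, a membrane protein of Golgi and lysosomes, -0.65, and the last 4 of the group (Lipa, Pdia4, Ctsc and Yipf2) are described with their pathways. For Bex1, a small brain-expressed X-linked protein, the kit difference of 3.96 exceeded the DEP difference of -1.26 (SE 0.21, adjusted p = 0.0223), and with no kit term the value turned to 0.32.

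**Figure D3:**
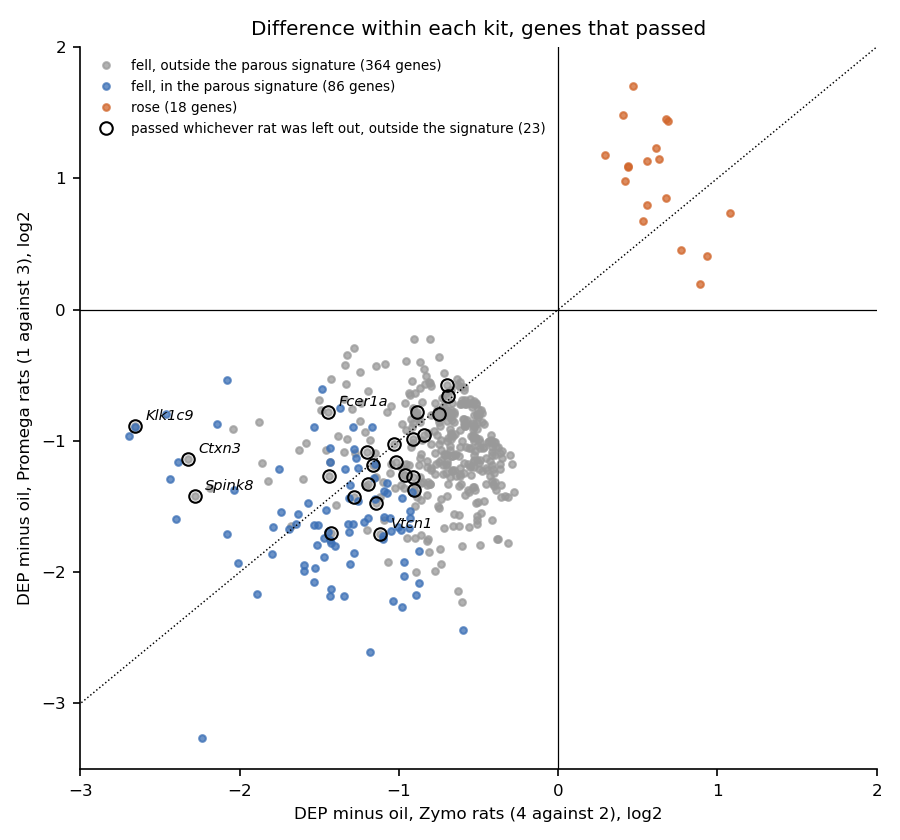
Each point is a gene that passed, placed by its DEP minus oil difference in log2 units among the Zymo rats (x axis, 4 against 2 rats) and among the Promega rats (y axis, 1 against 3), with falls outside the parous signature in grey, falls inside it in blue, rises in orange and the 23 genes outside the signature that passed in all 10 fits ringed. All 450 falls lie in the lower left and all 18 rises in the upper right, and Klk1c9 is at -2.66 and -0.89. The genes were called by a fit over both kits, so this placement is no further support.

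Inside the parous signature the 5 largest falls that held in all 10 fits were Cldn8 (-2.61), Aadat (-2.11), Ankrd22 (-2.02), Plet1 (-1.99) and Prom1 (-1.95). Cldn8 is a claudin, Aadat an enzyme of tryptophan breakdown, Plet1 a surface protein of luminal progenitors and Prom1 a protein of apical membrane protrusions. Cldn8 signals were 10.55 and 11.27 in the Zymo controls and 8.68, 9.51, 7.92 and 8.59 in the Zymo DEP rats, and 11.11, 10.96 and 10.50 in the Promega controls against 7.59 in DEP_par_46. The groups were apart in both kits. The smallest p of the comparison belonged to Mboat1, an acyltransferase of membrane lipids, at -1.24 (SE 0.11, adjusted p = 0.00536). Cd14, a receptor for bacterial lipopolysaccharide on macrophages and luminal cells, followed at -1.36 (SE 0.14, adjusted p = 0.0061).

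Genes that mark luminal cells fell in larger shares than tested genes as a whole, which describes the lists and is no test of them. A list's count is read against 6.78% of tested genes and its median against -0.06 over all of them. Of hormone-sensing luminal cell genes, 8 of 14 tested members (of 18 measured) fell and 1 rose, with a median of -0.93. Of the 8 falls, 6 were in the parous signature, which was chosen on these rats. Areg codes for the EGF-family ligand released by estrogen-responsive cells. Signals of Areg were 8.76, 7.63, 8.15 and 7.67 (DEP) against 10.28 and 11.23 (controls) with the Zymo kit and 7.79 (DEP) against 9.56, 7.49 and 9.22 (controls) with the Promega kit. The DEP rats were lower in both kits, with overlap. The difference of Areg was -2.07 (adjusted p = 0.0812), that of Prlr, the prolactin receptor, -1.74 (adjusted p = 0.0143), and that of Foxa1, the pioneer factor of the estrogen receptor, -1.17 (adjusted p = 0.116). Mean levels of the list were 7.61 to 8.0 in DEP rats and 8.48 to 8.98 in controls, so the groups did not overlap. The count was 3 without DEP_par_46 or OIL_par_446. Luminal progenitor and alveolar genes fell in 5 of 10 tested members (of 17 measured, median -0.67, count 3 without DEP_par_46 and 8 without DEP_par_38). Of these 5 falls, 4 were in the signature. Folr1, a folate receptor, changed by -1.67 (adjusted p = 0.0177) and Lcn2, a siderophore-binding lipocalin, by -1.32 (adjusted p = 0.0354). Without DEP_par_46, Foxa1 (-0.93) and Lcn2 (-1.31) no longer passed, nor did Areg (-1.61) and Foxa1 (-1.07) without OIL_par_446.

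Milk protein and milk fat genes fell in 7 of 13 tested members (of 21 measured), with a median of -0.72 and a count of 0 without DEP_par_46, 3 without DEP_par_40 or OIL_par_446, 4 without DEP_par_37 and 12 without DEP_par_38. Those that fell were Muc1, Muc15, Fabp3, Plin2, Lao1, Olah and Mfge8, and Plin2, a coat protein of fat droplets, changed by -1.27 (adjusted p = 0.0499). Of the 7 falls, 3 were in the signature. Wap, the whey acidic protein, had a difference of -1.74 (adjusted p = 0.279), past the fold change but not the adjusted p. Without DEP_par_46, Muc1 (-1.35) and Muc15 (-1.31) no longer passed. Fabp3 passed in 3 of the 10 fits that left out 1 rat, those without DEP_par_38, OIL_par_442 and OIL_par_444, with values of -1.81 to -1.27 over the 10. Lao1 passed in 3 of the 10 fits that left out 1 rat, those without DEP_par_38, OIL_par_441 and OIL_par_444, with values of -1.10 to -0.76 over the 10. Mfge8 passed in 5 of the 10 fits that left out 1 rat, those without DEP_par_38, DEP_par_41, OIL_par_440, OIL_par_441 and OIL_par_442, with values of -0.87 to -0.56 over the 10. Krt8, Krt18 and Krt19, the keratins of luminal cells, changed by -1.33, -1.15 and -1.26, and these were the 3 falls among 5 tested keratins. Of the 3 falls, 2 were in the signature. Without DEP_par_46, Plin2 (-1.10), Krt8 (-1.43), Krt18 (-0.93) and Krt19 (-1.15) no longer passed, nor did Krt8 (-1.21) without OIL_par_446. Epithelial transcription factors fell in 8 of 19 tested members (of 28 measured, median -0.54), with a count of 0 without DEP_par_46 or OIL_par_446, 4 without DEP_par_40, 5 without DEP_par_37, DEP_par_41, OIL_par_440, OIL_par_441 or OIL_par_442, 14 without DEP_par_38 and 15 without OIL_par_444. Tfap2b and Irx3 changed by -1.20 and -1.15. Without DEP_par_46, Tfap2b (-1.16) and Irx3 (-1.29) no longer passed, nor did Tfap2b (-1.08) and Irx3 (-0.99) without OIL_par_446.

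The outer epithelial layer gave a different count. Of basal and myoepithelial genes 0 of 12 tested members (of 17 measured) fell, the median was -0.22, and none of the 12 reached an unadjusted p under 0.05 (the count was 1 without DEP_par_38). Krt14 differed by -0.27 and Tp63 by -0.30. In the Zymo rats the basal median was 0.02 and in the Promega rats -0.52. The difference between basal and luminal lists was not tested. Epithelial genes outside the signature, a list of 25, fell in 8 of 19 tested members (of 25 measured), with all 25 lower and a median of -0.61 (the count was 1 without DEP_par_46, 5 without OIL_par_446, 13 without DEP_par_38 and 14 without OIL_par_444). DEP_par_38 lay at 8.74 on this list, inside the control range of 8.67 to 9.20, while the other 4 DEP rats lay at 7.94 to 8.23. In whole glands, fewer luminal cells and less RNA per luminal cell cannot be told apart. The part of the epithelial level in the other falls was not tested.

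**Figure D4:**
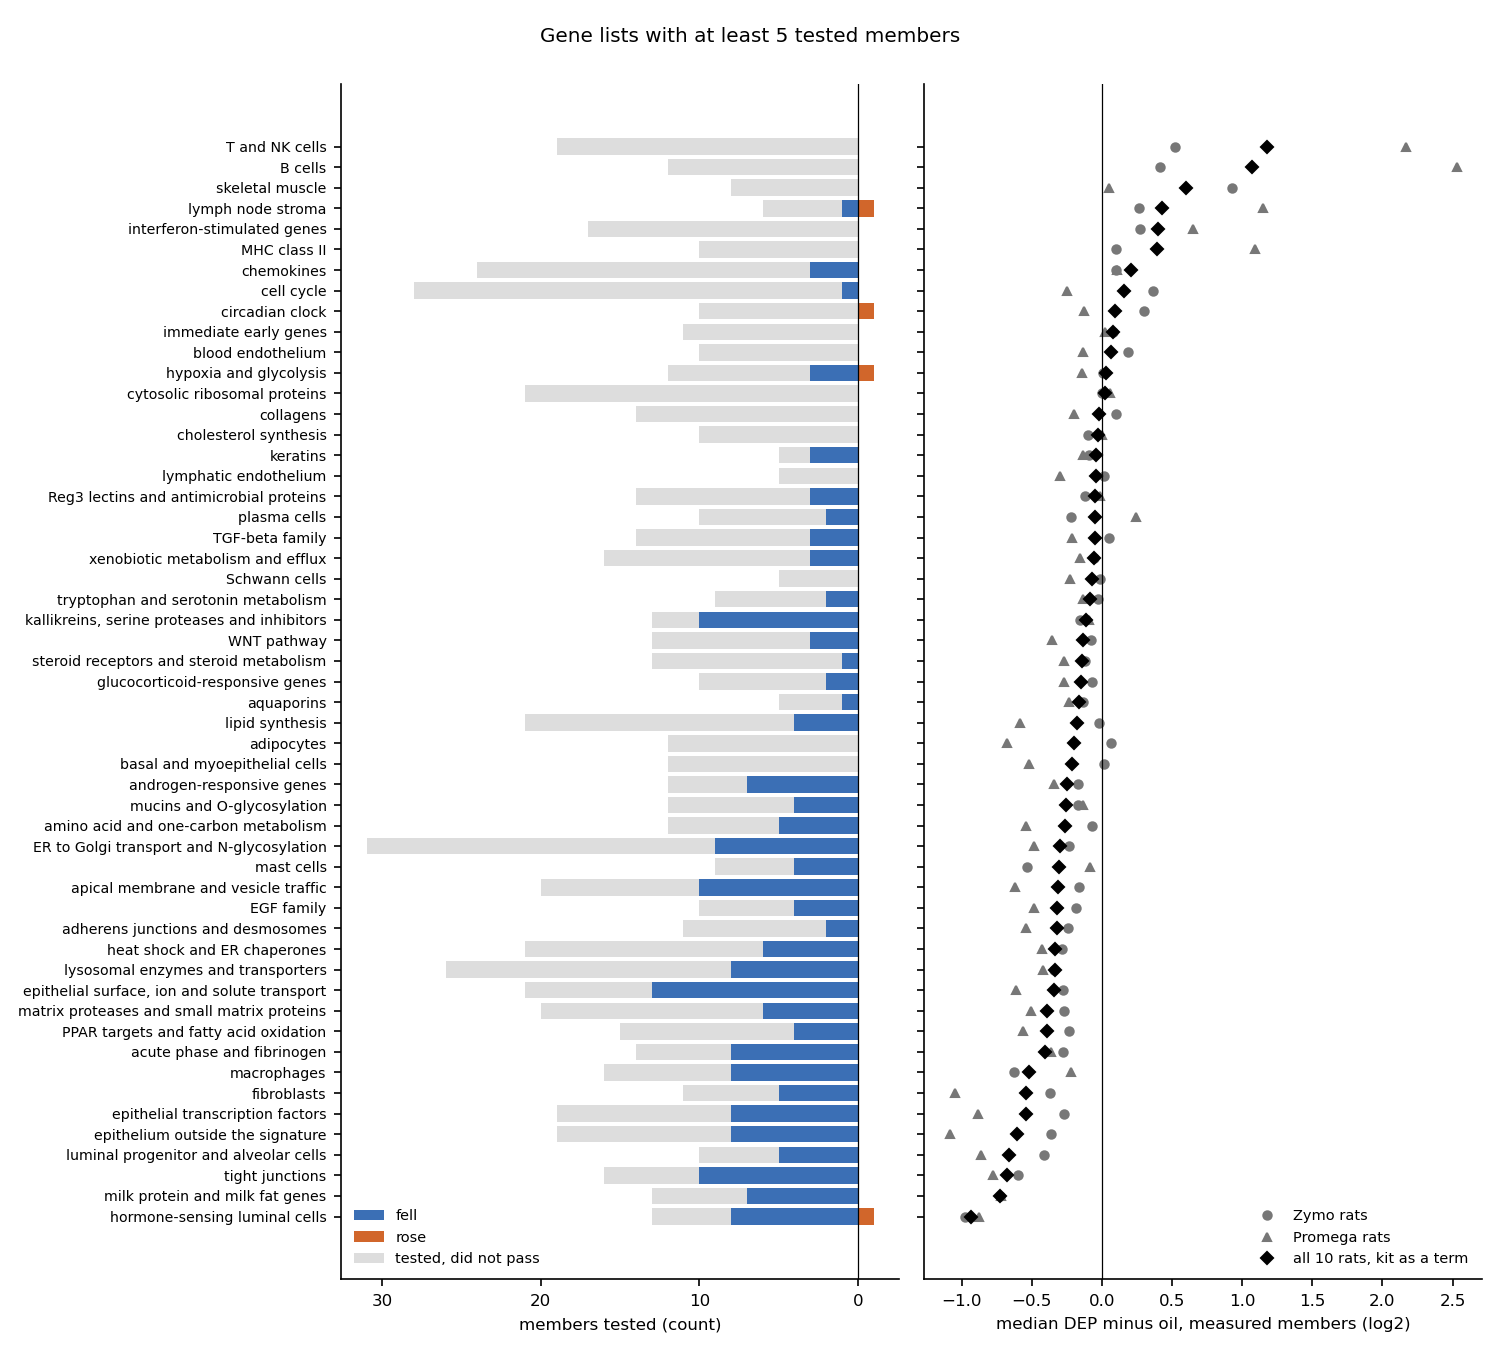
Left, the number of tested members of each gene list that fell (blue), rose (orange) or did not pass (grey), as counts on the x axis. Right, the median DEP minus oil difference of the measured members in log2 units, for the Zymo rats (circles), the Promega rats (triangles) and the fit of all 10 rats (diamonds). Hormone-sensing luminal genes have the lowest fitted median (-0.93) and T and NK cell genes the highest (1.18).

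Genes of apical membranes and vesicle traffic fell in 10 of 20 tested members (of 32 measured, median -0.31, count 2 without DEP_par_46 and 4 without OIL_par_446), among them Mal2 (-1.68) and Rab25 (-1.55), which carry cargo to the apical surface. Of the 10 falls, 7 were in the signature. Without DEP_par_46, Mal2 (-1.42) and Rab25 (-1.43) no longer passed, nor did Rab25 (-1.44) without OIL_par_446. ER chaperones and stress genes fell in 6 of 21 tested members (of 30 measured), with 29 of 30 measured members lower and a median of -0.33 (the count was 2 without DEP_par_46 and 3 without OIL_par_446). Xbp1, the transcription factor that expands the secretory apparatus, changed by -1.20 (SE 0.17, adjusted p = 0.0143). For Xbp1, the Zymo DEP rats read 11.03, 11.51, 11.07 and 11.30 where the Zymo controls read 12.32 and 12.70, and DEP_par_46 read 12.22 where the Promega controls read 13.46, 12.93 and 13.47. In both kits the DEP rats lay below the controls for Xbp1. Pdia4, a disulfide isomerase of the ER, changed by -0.88 (SE 0.12, adjusted p = 0.0143), and Hspa5 (BiP), the main ER chaperone, by -0.63 (SE 0.15, adjusted p = 0.0721). Without DEP_par_37, Hspa5 (-0.56) no longer passed, nor did Hspa5 (-0.72) without DEP_par_46, or Hspa5 (-0.60) without OIL_par_446.

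Because ER chaperone genes are classical targets of the ER stress response, their promoters were searched on both strands for the ER stress element (ERSE), spelled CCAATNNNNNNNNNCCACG. Sequences are the promoter windows of RefSeq around each gene start (build GRCr8), mostly upstream of it. The letters occur in 22 of 33469 promoters (0.066%), and in 8 of the 26 list members with a promoter entry, with differences of -1.20 to -0.13. Of the 6 that fell, 5 have an entry and 3 hold the element. Those 3 promoters are shown because their genes fell and hold it, in lower case with the element, or its reverse complement, in capitals. They lie at chr3:38452766-38453065, + strand for Hspa5, at chr7:121789134-121789433, + strand for Creld2 and at chr14:84604373-84604672, + strand for Xbp1.
Hspa5: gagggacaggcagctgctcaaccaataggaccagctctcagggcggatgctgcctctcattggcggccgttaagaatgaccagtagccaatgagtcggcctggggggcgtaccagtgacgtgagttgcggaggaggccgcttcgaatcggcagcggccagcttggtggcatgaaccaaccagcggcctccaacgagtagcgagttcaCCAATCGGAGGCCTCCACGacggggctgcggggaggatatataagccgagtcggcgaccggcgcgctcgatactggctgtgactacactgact
Creld2: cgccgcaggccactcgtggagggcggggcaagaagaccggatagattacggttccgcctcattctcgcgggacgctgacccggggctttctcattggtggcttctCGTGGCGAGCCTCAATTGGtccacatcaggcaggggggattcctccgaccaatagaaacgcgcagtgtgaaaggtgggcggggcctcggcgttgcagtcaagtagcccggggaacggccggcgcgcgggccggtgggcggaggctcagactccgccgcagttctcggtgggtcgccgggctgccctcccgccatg
Xbp1: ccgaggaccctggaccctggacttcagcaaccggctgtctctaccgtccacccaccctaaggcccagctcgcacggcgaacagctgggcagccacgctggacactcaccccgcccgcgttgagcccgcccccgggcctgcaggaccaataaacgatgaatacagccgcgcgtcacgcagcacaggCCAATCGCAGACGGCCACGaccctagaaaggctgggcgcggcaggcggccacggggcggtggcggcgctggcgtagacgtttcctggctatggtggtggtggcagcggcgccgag
A match is a run of letters and not a measured binding site. Other holders of the element did not pass, such as Calr (-0.45), Canx (-0.13) and Dnajc3 (-0.43).

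A list of ER-to-Golgi transport and N-glycosylation genes, chosen after the values were seen, fell in 9 of 31 tested members (of 57 measured), and 52 of the 57 were lower in both kits. Its median was -0.30 and its level 10.0 to 10.26 in DEP rats and 10.35 to 10.66 in controls (the count was 1 without DEP_par_46 and 2 without OIL_par_446). Yipf2, a Golgi membrane protein, was the member that held in all 10 fits (-0.68, adjusted p = 0.0182). Pgm3, an enzyme of sugar nucleotide synthesis, changed by -1.07 (adjusted p = 0.0721), and Kdelr2, a receptor that returns ER proteins from the Golgi, by -0.73 (adjusted p = 0.0887). Without DEP_par_46, Pgm3 (-0.97) and Kdelr2 (-0.66) no longer passed, nor did Pgm3 (-1.03) and Kdelr2 (-0.77) without OIL_par_446. Being chosen on the values, the count is a description.

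Lipa, the lysosomal lipase that breaks down cholesterol esters and triglycerides, had the smallest p of the 23 genes. Signals of Lipa were 8.87, 9.13, 9.16 and 9.14 (DEP) against 9.94 and 10.03 (controls) with the Zymo kit and 9.83 (DEP) against 10.86, 10.88 and 10.72 (controls) with the Promega kit. Its level was 9.39 ± 0.12 against 10.33 ± 0.07 in controls (SD, n = 5 each), and the difference was -0.94 (SE 0.11, adjusted p = 0.0135). Ctsc (cathepsin C), which activates granule proteases, changed by -0.85 (SE 0.14, adjusted p = 0.0182). A list of lysosomal enzymes and transporters, also chosen after the values were seen, fell in 8 of 26 tested members (of 43 measured), none of them in the signature, with a level of 9.84 to 10.03 in DEP rats and 10.26 to 10.42 in controls and a median of -0.34 (the count was 2 without DEP_par_46 and 5 without OIL_par_446). Ctsk, Ggh and Ctns were among those that fell, at -0.89, -0.86 and -0.75. Without DEP_par_46, Ctsk (-0.77), Ggh (-0.82) and Ctns (-0.65) no longer passed, nor did Ctsk (-0.83) without OIL_par_446. DEP_par_38 lay below all controls on the lysosomal (9.93), ER-to-Golgi (10.26), tight junction (8.23) and hormone-sensing (8.0) lists. The lysosomal and ER-to-Golgi lists were chosen after the values were seen. On other lists it lay inside the control range, as for keratins (7.77, controls 7.56 to 7.84) and epithelial transcription factors (8.95, controls 8.59 to 9.04). Luminal progenitor and alveolar genes were a further case (9.96, controls 9.95 to 10.31). The part of epithelial content in these levels was not tested.

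Of growth factor pathways, a minority of tested members passed. In the EGF family, 4 of 10 tested members (of 14 measured) fell, the ligands Areg and Btc (-1.01) and the receptors Erbb4 (-0.89) and Egfr (-0.66), with a median of -0.32. The count was 0 without OIL_par_446, 1 without DEP_par_46, 2 without DEP_par_40, OIL_par_440 or OIL_par_442 and 7 without OIL_par_444. Without DEP_par_46, Egfr (-0.53) no longer passed, nor did Areg (-1.61) and Egfr (-0.62) without OIL_par_446. Btc passed in 4 of the 10 fits that left out 1 rat, those without DEP_par_38, DEP_par_41, OIL_par_441 and OIL_par_444, with values of -1.34 to -0.54 over the 10. Erbb4 passed in 3 of the 10 fits that left out 1 rat, those without DEP_par_37, DEP_par_38 and OIL_par_444, with values of -1.14 to -0.51 over the 10. In the TGF-beta family 3 of 14 tested members (of 27 measured) fell, the ligands Tgfb2 (-0.96) and Tgfb3 (-1.09) and the receptor Bmpr1b (-1.07). Of the 27, 15 were lower and 12 higher, the highest by 1.23, and 0 passed as rises. The median was -0.05 (the count was 0 without DEP_par_46 or OIL_par_446 and 7 without DEP_par_38 or OIL_par_444). Without DEP_par_46, Tgfb2 (-0.82), Tgfb3 (-0.92) and Bmpr1b (-0.89) no longer passed, nor did Tgfb2 (-0.83), Tgfb3 (-1.24) and Bmpr1b (-0.91) without OIL_par_446. In the WNT pathway, 3 of 13 tested members (of 33 measured) fell, the enhancer ligand Rspo3 (-1.38), its receptor Lgr4 (-1.04) and the receptor Fzd6 (-0.77). Of the 33, 26 were lower and 7 higher, the highest by 2.1, and 0 passed as rises. The median was -0.14 (the count was 0 without DEP_par_46 or OIL_par_446, 1 without DEP_par_40 and 8 without DEP_par_38 or OIL_par_444). Without DEP_par_40, Lgr4 (-0.97) no longer passed, nor did Lgr4 (-0.61) and Fzd6 (-0.67) without DEP_par_46, or Lgr4 (-1.15) and Fzd6 (-0.70) without OIL_par_446. Rspo3 passed in 4 of the 10 fits that left out 1 rat, those without DEP_par_38, DEP_par_41, OIL_par_441 and OIL_par_444, with values of -1.62 to -0.99 over the 10.

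In metabolism, the arginases Arg1 and Arg2, which split arginine, changed by -1.64 (adjusted p = 0.056) and -1.33 (adjusted p = 0.0604), and Cth, which makes cysteine, by -1.30 (adjusted p = 0.0549). Amino acid and one-carbon genes fell in 5 of 12 tested members (of 22 measured, median -0.27, the count was 0 without OIL_par_446, 1 without DEP_par_46 and 3 without DEP_par_37, DEP_par_40 or OIL_par_440). Of the 22, 14 were lower and 8 higher, the highest by 1.42, and 0 passed as rises. Without DEP_par_46, Arg2 (-1.10) and Cth (-1.43) no longer passed, nor did Arg1 (-1.30), Arg2 (-1.27) and Cth (-1.0) without OIL_par_446. Acute phase and fibrinogen genes fell in 8 of 14 tested members (of 23 measured, median -0.41, the count was 3 without DEP_par_46 and 4 without OIL_par_446), led by the fibrinogen chain Fgg (-1.95, adjusted p = 0.0771). Without DEP_par_46, Fgg (-2.39) no longer passed, nor did Fgg (-1.35) without OIL_par_446. Among genes of drug metabolism and efflux, 3 of 16 tested members (of 44 measured) fell, with a median of -0.06. Abcg2, a transporter that moves drugs and riboflavin into milk, changed by -1.61 (adjusted p = 0.0273) and held in all 10 fits. Cyp2b1 and Gsta4 were the others, at -1.67 and -1.03, and the count was 1 without DEP_par_37, DEP_par_46, OIL_par_442 or OIL_par_446, 6 without DEP_par_38 and 8 without OIL_par_444. Cyp2b1 passed in 3 of the 10 fits that left out 1 rat, those without DEP_par_38, OIL_par_441 and OIL_par_444, with values of -2.04 to -1.29 over the 10. Gsta4 passed in 6 of the 10 fits that left out 1 rat, those without DEP_par_38, DEP_par_40, DEP_par_41, OIL_par_440, OIL_par_441 and OIL_par_444, with values of -1.30 to -0.81 over the 10. With no kit term the value of Gsta4 turned to 0.04.

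Lipid genes passed in small numbers. PPAR targets and fatty acid oxidation fell in 4 of 15 tested members (of 26 measured, median -0.39), with Angptl4, an inhibitor of lipoprotein lipase, at -1.46 (adjusted p = 0.0459), and the count was 0 without DEP_par_46, 2 without DEP_par_40, DEP_par_41, OIL_par_440, OIL_par_441 or OIL_par_446, 8 without DEP_par_38 and 9 without OIL_par_444. Without DEP_par_46, Angptl4 (-1.04) no longer passed. Lipid synthesis genes fell in 4 of 21 tested members (of 28 measured) (Sdr16c5, Mboat1, Fads2 and Fads1), of which Sdr16c5 and Mboat1 held in all 10 fits and Fads1 and Fads2 in the same 2, without DEP_par_38 and OIL_par_444, with a median of -0.18. The count was 2 without DEP_par_37, DEP_par_40, DEP_par_41, DEP_par_46, OIL_par_440, OIL_par_441, OIL_par_442 or OIL_par_446. None of 10 tested cholesterol synthesis genes passed (median -0.03, 0 at an unadjusted p under 0.05, 1 without DEP_par_38 or OIL_par_444). Steroid receptor and steroid metabolism genes fell in 1 of 13 tested members (of 25 measured), the 1 being Hsd17b12 (-0.61), whose value with no kit term turned to 0.19 (median -0.14). Hsd17b12 passed in 3 of the 10 fits that left out 1 rat, those without DEP_par_38, DEP_par_41 and OIL_par_444, with values of -0.80 to -0.47 over the 10. The count of the list was 0 without DEP_par_40, DEP_par_46, OIL_par_442 or OIL_par_446, 2 without OIL_par_441, 3 without DEP_par_38 or DEP_par_41 and 6 without OIL_par_444, from other members where Hsd17b12 itself did not pass. Androgen-responsive genes, a list of prostate-derived targets, fell in 7 of 12 tested members (of 22 measured, median -0.25, the count was 0 without DEP_par_46 and 3 without OIL_par_446), and 4 of the 7, Krt8, Krt18, Krt19 and Tmprss2, are also luminal epithelial genes.

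Stromal and immune cells were followed through lists of their markers. Macrophage genes fell in 8 of 16 tested members (of 19 measured), with a median of -0.52. Of the 19, 14 were lower and 5 higher, the highest by 0.94, and 0 passed as rises. The median was -0.63 in the Zymo rats and -0.22 in the Promega rats. The scavenger receptor Cd163, a marker of resident tissue macrophages, changed by -1.14 (adjusted p = 0.0629), the folate receptor Folr2 by -1.11 (adjusted p = 0.037), the lectin Clec10a by -1.23 (adjusted p = 0.0791) and F13a1 by -1.41 (adjusted p = 0.0634). Cd163 signals were 8.76 and 9.10 in the Zymo controls and 7.75, 7.78, 7.60 and 8.51 in the Zymo DEP rats, and 9.15, 9.39 and 10.20 in the Promega controls against 8.22 in DEP_par_46. Within each kit the DEP rats lay below the controls. The pan-macrophage genes Cd68 and Csf1r differed by -0.04 and -0.26, and did not pass. The list's level was 8.45 to 9.33 in DEP rats and 9.0 to 9.76 in controls, which overlap, and the count was 1 without DEP_par_46 and 2 without OIL_par_446. Without DEP_par_46, Cd163 (-1.02), Folr2 (-0.99), Clec10a (-1.49) and F13a1 (-1.29) no longer passed, nor did Cd163 (-1.10), Clec10a (-1.01) and F13a1 (-1.36) without OIL_par_446.

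Mast cell genes fell in 4 of 9 tested members (of 13 measured), with a median of -0.31. Of the 13, 9 were lower and 4 higher, the highest by 0.94, and 0 passed as rises. The median was -0.54 in the Zymo rats and -0.08 in the Promega rats. Those that fell were Fcer1a, the protease Cpa3 (-1.32, adjusted p = 0.0834), Slc18a2 (-0.97, adjusted p = 0.0532), which loads histamine into granules, and Ms4a2 (-0.93, adjusted p = 0.135), the beta chain of the IgE receptor. For Cpa3, the Zymo DEP rats read 8.85, 8.94, 9.32 and 9.97 where the Zymo controls read 10.50 and 10.96, and DEP_par_46 read 8.59 where the Promega controls read 8.87, 9.76 and 10.35. The list's level was 6.21 to 7.08 in DEP rats and 6.97 to 7.49 in controls, with overlap, and the count was 1 without OIL_par_446. Without DEP_par_37, Ms4a2 (-0.84) no longer passed, nor did Cpa3 (-1.46) without DEP_par_46, or Cpa3 (-1.15), Slc18a2 (-0.81) and Ms4a2 (-0.64) without OIL_par_446. Fibroblast genes fell in 5 of 11 tested members (of 15 measured, median -0.54), including Fap (-1.07), Mfap5 (-1.01) and Pi16 (-0.87), and the count was 0 without DEP_par_46 or OIL_par_446, 1 without DEP_par_37 or DEP_par_40, 2 without OIL_par_442 and 3 without OIL_par_440. Without DEP_par_46, Fap (-0.86) no longer passed, nor did Fap (-0.91) without OIL_par_446. Mfap5 passed in 5 of the 10 fits that left out 1 rat, those without DEP_par_38, DEP_par_41, OIL_par_440, OIL_par_441 and OIL_par_444, with values of -1.18 to -0.87 over the 10. Pi16 passed in 3 of the 10 fits that left out 1 rat, those without DEP_par_38, DEP_par_41 and OIL_par_444, with values of -1.06 to -0.38 over the 10. Small matrix proteins and matrix proteases fell in 6 of 20 tested members (of 35 measured, median -0.39, the count was 0 without DEP_par_46 or OIL_par_446, 2 without DEP_par_37 or DEP_par_40 and 10 without DEP_par_38), while 0 of 14 tested collagen genes passed (median -0.02, 0 at an unadjusted p under 0.05, 1 without OIL_par_444 and 2 without DEP_par_38).

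Lymphocyte genes were higher on average in DEP rats but did not pass. T and NK cell genes had a median of 1.18 and B cell genes of 1.07, with 0 of 19 and 0 of 12 tested members called and 1 and 0 at an unadjusted p under 0.05. In the DEP rats the T and NK cell level was 9.90, 7.74, 10.36, 10.06 and 10.34, and in the controls 8.82, 7.38, 9.52, 10.10 and 8.16, in order of rat number. DEP_par_38 was as low as the low controls, and OIL_par_444 as high as the other DEP rats. Without DEP_par_38 the 2 lists had 16 and 11 members called, and without OIL_par_444 16 and 12, while without DEP_par_41 1 T and NK cell gene was called. MHC class II genes (median 0.39) and interferon-stimulated genes (median 0.40) had 0 of 10 and 0 of 17 called (0 and 1 at an unadjusted p under 0.05), but 6 without OIL_par_444 and 7 without DEP_par_38 for the first and 7 without OIL_par_444 and 8 without DEP_par_38 for the second. With the mean lymphocyte level as a further covariate, 345 genes fell and 8 rose, and of the 450 falls 302 passed, all 54 steady ones and the 23 outside the signature among them.

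**Figure D5:**
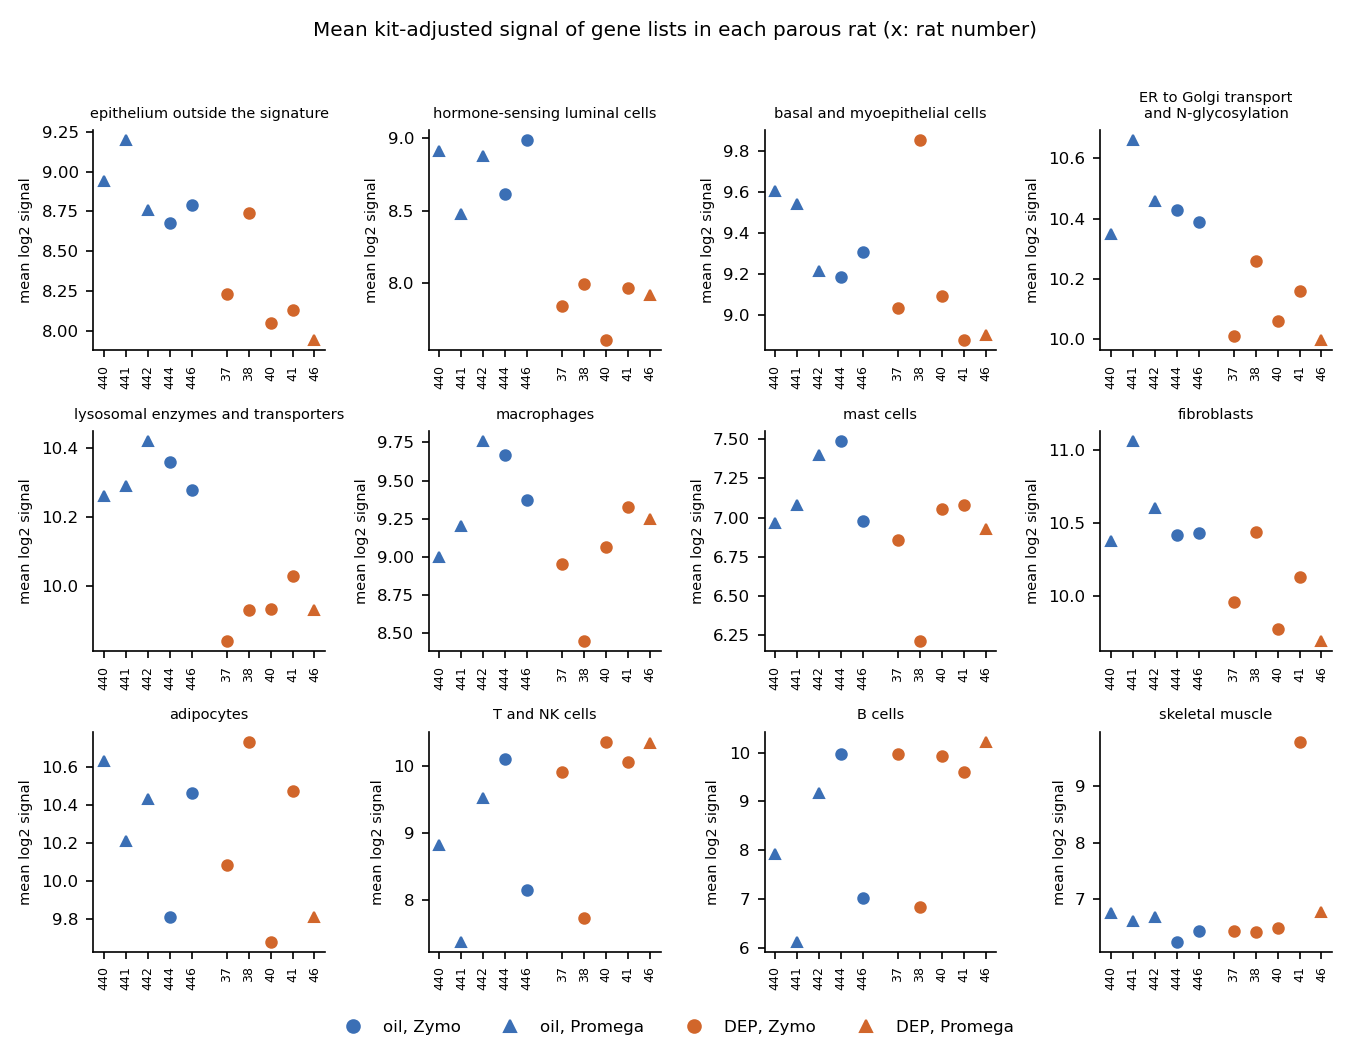
Points give the mean log2 signal of a gene list in each parous rat after the kit difference was removed (y axis), with rats by number on the x axis, controls in blue, DEP rats in orange, circles for Zymo and triangles for Promega. The hormone-sensing, ER-to-Golgi and lysosomal lists separate the groups, while on the T and NK cell list DEP_par_38 (7.74) lies below the other DEP rats. The separation is a description. The ER-to-Golgi and lysosomal lists were chosen after the values were seen, and 6 of the 8 hormone-sensing falls are signature genes chosen on these rats. Lists not drawn here also separate the groups, such as tight junctions (7.77 to 8.23 with DEP, 8.33 to 8.65 in controls).

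Other cell types passed rarely. Adipocyte genes (0 of 12 tested, median -0.20), blood endothelial genes (0 of 10, 0.07), lymphatic endothelial genes (0 of 5, -0.04) and skeletal muscle genes (0 of 8, 0.60) had no call, with 0, 1, 2 and 0 members at an unadjusted p under 0.05. The adipocyte count was 3 without DEP_par_38 and 5 without OIL_par_444. Cell cycle genes had 1 fall of 28 tested, Ccnd1 (-0.62), and cytosolic ribosomal protein genes 0 of 21 (1 at an unadjusted p under 0.05). The cell cycle count was 0 without DEP_par_37, DEP_par_40, DEP_par_41, DEP_par_46, OIL_par_440, OIL_par_441, OIL_par_442 or OIL_par_446, 3 without DEP_par_38 and 5 without OIL_par_444. Ccnd1 passed in 2 of the 10 fits that left out 1 rat, those without DEP_par_38 and OIL_par_444, with values of -0.74 to -0.51 over the 10.

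The 18 genes that rose were fewer and less steady. Nr1d1 (Rev-erb alpha), a repressor of the circadian clock, rose by 0.96 (adjusted p = 0.0991). Nr1d1 signals were 8.04 and 8.18 in the Zymo controls and 9.39, 9.65, 9.04 and 8.67 in the Zymo DEP rats, and 9.84, 10.23 and 9.22 in the Promega controls against 10.50 in DEP_par_46. Its DEP rats lay above the controls without overlap within each kit. It was the sole call among 11 tested clock genes, whose median was 0.09 (the count was 0 without DEP_par_46 or OIL_par_446, 2 without DEP_par_41 and 3 without OIL_par_444). Pfkfb3, an enzyme that drives glycolysis, rose by 0.66 (adjusted p = 0.095), Ptp4a3, a phosphatase, by 0.83 (adjusted p = 0.111) and Slc25a12, a mitochondrial aspartate-glutamate carrier, by 0.74 (adjusted p = 0.11). Without DEP_par_46, Nr1d1 (1.08), Pfkfb3 (0.77), Ptp4a3 (0.61) and Slc25a12 (0.67) no longer passed, nor did Nr1d1 (0.95), Pfkfb3 (0.61), Ptp4a3 (0.66) and Slc25a12 (0.52) without OIL_par_446. With no kit term Pfkfb3 turned to -0.08. The other 14 were Tnfsf11 (0.96), the RANK ligand, which is made by hormone-sensing luminal cells and by activated T cells and lymph node stroma, Parp8, Nfatc2, Camk4, Pik3ap1, Donson, Haus6, Izumo4, Sv2b, Mphosph9, Zfp707l1, Nxpe1, Gpr52 and Slc12a7, at 0.58 to 0.95 among those named after Tnfsf11. Without DEP_par_46 or without OIL_par_446 none of the 18 passed, and all 18 stayed higher. Tnfsf11, Parp8, Camk4, Pik3ap1, Donson, Izumo4, Mphosph9 and Gpr52 passed in 2 of the 10 fits that left out 1 rat, those without DEP_par_38 and OIL_par_444. With no kit term Gpr52 (-0.07) and Slc12a7 (-0.34) turned negative. With the lymphocyte level as a covariate 6 of the 18 passed, Nr1d1, Pfkfb3, Ptp4a3, Haus6, Nfatc2 and Zfp707l1. The 12 that did not include Tnfsf11 (0.52) and Camk4 (0.46), a kinase of T cells.

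Nulliparous rats of the same age, 5 with DEP and 5 with oil, were set beside the parous rats. Their kits were split in the same uneven way, with 4 of the DEP rats but 2 of the controls in the Zymo kit. Whether DEP acted differently in the 2 parities was tested as an interaction in a model of the 20 rats, and it was called for 0 genes (0.0%), with 85 at an unadjusted p under 0.05 and a smallest adjusted p of 0.997 (limma). Leaving out OIL_null_429 gave 1 call. All 23 steady genes outside the parous signature were lower with DEP in nulliparous rats too, by -1.77 to -0.43. How many of all tested genes were lower there was not counted. Since both parities have the same kit imbalance, a shared remainder of the kit difference and a shared DEP difference cannot be told apart. For Klk1c9 the nulliparous value was -1.50 and the parous minus nulliparous difference -0.47 (SE 0.48). Vtcn1 (-0.72) and Lipa (-0.33) were the 2 of the 23 with an unadjusted interaction p under 0.05, both with the larger fall in parous rats, and neither passed after adjustment. A p that misses the threshold does not show equal effects.

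DEP rats were also set against the parous rats given methyl paraben, triclosan or a mixture of the 3 chemicals, 5 of each. These comparisons share the 5 DEP rats with the main one, so they are given side by side only. Against methyl paraben, 561 genes were called, 434 lower (6.53% of those tested) and the others higher (1.91%) in DEP rats, against triclosan 657 lower (9.89%) and 626 higher (9.42%), and against the mixture 654 lower (9.85%) and 700 higher (10.5%). The total against methyl paraben depended on single rats, with 163 calls without MPB_par_142, 214 without MPB_par_143, 281 without DEP_par_40, 308 without DEP_par_46, 344 without DEP_par_37, 1152 without MPB_par_139 and 1280 without DEP_par_38, and the 1283 against triclosan became 852 without DEP_par_46. Of the 23 genes, 18 were called lower than with methyl paraben (-2.17 to -0.47 over the 23), 22 than with triclosan (-1.65 to -0.29) and 16 than with the mixture (-1.52 to -0.41). Klk1c9 differed by -1.96, -1.57 and -1.08 in that order. Wap differed by -1.97, -2.78 and -2.73. The largest higher values against triclosan and the mixture belonged to lymph node genes, such as the chemokine Ccl19 (3.74 and 3.41) and the B cell gene Ms4a1 (3.44 and 3.09), whose differences from oil, 1.92 and 1.86, did not pass. The part of lymphocyte content in these counts was not tested.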

How the data were processed

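Total RNA of each rat was hybridised to 1 Affymetrix Rat Gene 2.0 ST array. The authors summarised probes by robust multi-array averaging (RMA) in Affymetrix Expression Console and deposited log2 signals, and their methods describe ComBat (R 3.0.2) against the kit difference, which the deposited values still carry. RMA normalises arrays to each other and gives no counts, so no depth applies. Of 36685 probesets, 18511 have 1 gene symbol, 575 several and 17599 none (left out), giving 18166 genes (highest-mean probeset for 291 with several). After the study's filters, genes needed a group mean above the 30th percentile (6.33) and an interquartile range in the upper 50%, over the 20 DEP and control rats, which left 6642. The methods place ComBat before both filters, while here they ran on the deposited values, which hold the kit difference, so it took part in choosing the tested genes (the other order is an alternative).

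Limma 3.58.1 (R 4.3.3) fitted group and kit on 10 rats, a model of 20 rats the parity interaction, and a model of the 25 parous rats the comparisons with other chemicals. P-values were adjusted by Benjamini-Hochberg over all tested genes (a pass is an adjusted p under 0.25 and 1.5-fold), and the scripts were tested on simulated data. Members, 54 of the 56 gene lists and naming rules (the 20 largest falls outside and 5 inside the signature that held whichever rat was left out, all rises, up to 5 passing members of each list, the 5 largest changes each way of the other comparisons and the genes the study's text names) were chosen with earlier results of these data known, the other 2 lists after the values were seen. Bspry, Calr, Canx, Cd68, Creld2, Csf1r, Cyb561, Dnajc3, Krt14, Mup4l3, Olah, Scnn1a, Scnn1g, Slc15a2, Tmbim1 and Tp63 are given beyond that rule and were chosen after their values were seen. Alternatives changed the kit term, rats, filters, probesets, weights, normalisation (an implementation of ComBat included) and thresholds. Groups have no shared rat numbers. Figures used matplotlib 3.10.9.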

Additional observations from a re-analysis of the deposited data

Results flagged for a closer look

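Within each group of 5 rats, signals after the kit difference was removed were searched for a single rat whose gap to its nearest neighbour took most of the range of its group. Of 432 groups of values (160 called genes and 56 gene lists, each in DEP rats and controls), 45 had such a rat, where chance alone gives about 1 in 20. Groups share their rats and many genes move together, so these are not 45 separate events. In each case below, the value of the rat is followed by the range of the other 4 rats of its group.

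DEP_par_38 was the rat that stood apart in 29 of the 45. It had the highest DEP signal of 12 genes that fell, and so lay nearest to the controls. These were Tfap2b at 8.68 against 7.30 to 7.61, Muc1 at 10.31 against 8.73 to 9.17, Lao1 at 7.43 against 6.33 to 6.64 and Arg2 at 8.60 against 7.28 to 7.53. They also included Tgfb3 at 10.94 against 9.44 to 9.75, Fzd6 at 9.22 against 8.35 to 8.46, Fads1 at 11.03 against 9.77 to 9.99 and Qsox1 at 10.92 against 9.28 to 9.71. Matrix, secretion and other genes were Postn at 12.38 against 11.40 to 11.59, Loxl1 at 10.05 against 9.20 to 9.37, Duoxa1 at 10.03 against 8.89 to 9.13 and Pigr at 8.52 against 7.25 to 7.58. The same rat had the lowest signal of 4 genes that rose. They were Camk4 at 8.45 against 9.30 to 9.57, Donson at 8.46 against 9.45 to 9.62, Parp8 at 8.50 against 9.63 to 10.04 and Tnfsf11 at 6.82 against 8.20 to 8.33. On gene lists it was high for adherens junctions and desmosomes at 8.46 against 7.92 to 8.03, keratins at 7.77 against 7.25 to 7.36, epithelial transcription factors at 8.95 against 8.05 to 8.28 and basal and myoepithelial cells at 9.85 against 8.88 to 9.09. Further high lists were epithelial surface, ion and solute transport at 7.74 against 7.29 to 7.42, blood endothelium at 9.50 against 8.88 to 9.05 and Schwann cells at 8.92 against 8.54 to 8.60. It was low for MHC class II at 8.89 against 10.25 to 10.69, cytosolic ribosomal proteins at 11.38 against 11.55 to 11.60 and lymph node stroma at 8.07 against 9.96 to 10.04. Further low lists were T and NK cells at 7.74 against 9.90 to 10.36, B cells at 6.84 against 9.60 to 10.22 and mast cells at 6.21 against 6.86 to 7.08. Its T and NK cell and B cell levels are thus far below those of the other DEP rats while its epithelial lists are above them. How far one follows from the other was not tested.

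DEP_par_41 stood apart with a high value in 7 cases. Among genes these were Agtr1a at 8.39 against 7.92 to 8.04, Omd at 8.97 against 8.30 to 8.43 and F13a1 at 9.09 against 8.08 to 8.32. Others were Cd163 at 8.71 against 7.81 to 7.98 and Folr2 at 8.25 against 7.74 to 7.86. Among lists they were brown adipocytes at 6.99 against 6.49 to 6.54 and skeletal muscle at 9.79 against 6.42 to 6.77. The skeletal muscle level is the largest of these gaps, and no skeletal muscle gene passed.

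The remaining 9 cases were single high values. DEP_par_46 was high for Orm1 at 7.67 against 6.45 to 6.74. OIL_par_441 was high for Lao1 at 8.81 against 7.11 to 7.54, Postn at 13.16 against 12.37 to 12.52, Fkbp11 at 11.01 against 10.12 to 10.30 and collagens at 8.31 against 7.79 to 7.90. OIL_par_442 was high for Pdia4 at 11.78 against 11.65 to 11.67. OIL_par_446 was high for Ankrd22 at 8.62 against 7.52 to 7.72, Sdr16c5 at 8.31 against 6.76 to 7.15 and Cxcl1 at 8.74 against 8.04 to 8.23.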

How the results depend on the processing

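The 468 calls of the main comparison became 42 with no kit term (all falls, all among the 450), 8 in Zymo rats alone, 843 with all 50 rats in 1 model (545 falls, 298 rises), 810 with the 25 parous rats (570 and 240), 1457 with array weights (816 and 641), 97 at an adjusted p under 0.05, 786 with both filters after ComBat (723 and 63, 6545 genes tested, chosen after seeing the data) and 751 with no fold change threshold. They stayed within 1.5 times under the other alternatives, at 353 (lymphocyte covariate, chosen after seeing the data) to 702 (intensity filter only), with 406 for ComBat and 550 for an intensity percentile over all probesets and rats (also chosen after seeing the data). Leaving out 1 rat gave 64 to 1485. Against methyl paraben the 561 calls became 65 with no kit term and 163 to 1280 with 1 rat left out, against triclosan the 1283 became 852 to 1646 with 1 rat left out, and against the mixture the 1354 became 826 with no kit term. The parity difference gave 0 calls with no kit term or the intensity filter only, and 0 to 1 with 1 rat left out. Without a kit term 7 named genes turned sign: Bex1 (0.32), Gsta4 (0.043), Hsd17b12 (0.19), Omd (0.64), Gpr52 (-0.067), Pfkfb3 (-0.084) and Slc12a7 (-0.34). By construction that fit leaves the kit difference in groups with unequal kits. Over the 160 named genes that passed and 26 alternatives, 3290 values kept direction and call, 863 lost the call and 7 reversed. No paired analysis was possible because the groups share no rat numbers.

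With 4 and 2 Zymo rats and 1 and 3 Promega rats, the spread of DEP rats within the Promega kit cannot be measured. The array measures RNA of whole glands, so cell numbers are unknown. In 19 of the 450 falls the mean of DEP rats lay below the intensity threshold, so their sizes are uncertain.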

Other observations

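Of 11 tested circadian clock genes Nr1d1 rose and the other 10 did not pass. Npas2, a clock transcription factor, differed by -0.49 (adjusted p = 0.133) in parous rats. Npas2, Slc39a1 and Egr2 had the smallest unadjusted p of the parity interaction, at -0.65, -0.92 and 0.98 for the parous minus nulliparous difference, none of which passed.

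Single immune genes fell. Cd209f, a C-type lectin gene, changed by -1.51 (adjusted p = 0.108), while 11 of the 12 measured genes of its list, lymph node stroma, were higher in DEP rats (median 0.43, 1 fall and 1 rise, Tnfsf11, called of 7 tested). The calls of that list were 0 without DEP_par_46 or OIL_par_446, 1 without DEP_par_37, DEP_par_40, DEP_par_41, OIL_par_440, OIL_par_441 or OIL_par_442 and 6 without DEP_par_38 or OIL_par_444. Tnfsf11 passed in 2 of the 10 fits that left out 1 rat, those without DEP_par_38 and OIL_par_444, with values of 0.69 to 1.25 over the 10. Siglec5, a receptor of myeloid cells for sialic acids, changed by -1.10 (adjusted p = 0.0816) and the chemokines Ccl6 and Cx3cl1 by -1.53 (adjusted p = 0.0499) and -0.72 (adjusted p = 0.0674). Without DEP_par_46, Cd209f (-1.88), Siglec5 (-1.34), Ccl6 (-1.57) and Cx3cl1 (-0.62) no longer passed, nor did Cd209f (-1.19), Siglec5 (-0.88) and Ccl6 (-1.40) without OIL_par_446.

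Aldoc, a glycolytic aldolase, fell with a difference of -1.55 (adjusted p = 0.0529) and Ndrg1 with -0.71, while Pfkfb3 rose (0.66), and of 13 tested hypoxia and glycolysis genes 3 fell and 1 rose (median over the 21 measured 0.03). These calls became 0 without DEP_par_46, 1 without OIL_par_446 and 2 without DEP_par_37, DEP_par_40 or OIL_par_440. Without DEP_par_46, Aldoc (-1.40) and Pfkfb3 (0.77) no longer passed, nor did Pfkfb3 (0.61) without OIL_par_446. Ndrg1 passed in 2 of the 10 fits that left out 1 rat, those without DEP_par_38 and OIL_par_444, with values of -0.88 to -0.40 over the 10.

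Lists not described above gave small counts, to be read against the 6.78% of all tested genes that fell. Mucin and O-glycosylation genes fell in 4 of 12 tested members (of 23 measured), with a median of -0.26 (1 without DEP_par_46 and 7 without DEP_par_38 or OIL_par_444). All 4 falls were in the parous signature. Reg3 lectins and antimicrobial proteins fell in 3 of 14 tested members (of 23 measured), with a median of -0.05 (0 without DEP_par_46, 6 without OIL_par_444 and 8 without DEP_par_38), and chemokine genes in 3 of 24 tested members (of 32 measured), with a median of 0.21 (0 without DEP_par_46, 1 without OIL_par_446, 8 without OIL_par_444 and 13 without DEP_par_38). Glucocorticoid-responsive genes fell in 2 of 10 tested members (of 17 measured) and plasma cell genes in 2 of 10 tested members (of 11 measured), with medians of -0.15 and -0.05. Their counts were 0 without DEP_par_46 and 4 without OIL_par_444 for the first and 1 without DEP_par_46 or OIL_par_446 and 5 without DEP_par_38 or OIL_par_444 for the second.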
